A study of Mus musculus with 16 samples.

Results

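Transcripts of 10 genes were followed across 16 libraries of mouse leukaemia cells: Atf4, the targets linked to it Asns, Ddit3, Chac1, Trib3 and Sesn2, and the serine and glycine synthesis genes Phgdh, Psat1, Psph and Shmt2. They were chosen by name, as the ATF4 response and the serine synthesis pathway, and all 10 were found by symbol among the 55414 Ensembl identifiers of the table. All libraries came from mice labelled as a model of pro-B acute lymphoblastic leukaemia of infants. The genotype was given as miR-128a overexpressing and Kmt2a-AFF1+, so every group carried both the fusion and the overexpressed microRNA. Leukaemia-propagating cells (LPC) were taken from bone marrow (BM) and from the central nervous system (CNS) and sorted. The LSK_IL7R gate was lineage-negative, Sca1+, cKit+ and IL7R+ (called LSK here), and the LK/CLP gate was lineage-negative, Sca1- and cKit+ (called LK here). The groups were BM LSK, CNS LSK, BM LK and CNS LK, with 4 libraries each. The labels used here give no age, no promoter for either transgene and no number of animals, so the p-values measure the spread between these libraries, which may be partly technical.

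ATF4 is a transcription factor whose protein is made mainly under the integrated stress response, when kinases phosphorylate the initiation factor eIF2 and most translation slows while the Atf4 message is translated more. Because this control acts on translation, the level of the Atf4 message is not a measure of ATF4 protein, and the response is usually read from its target genes. Among the targets are enzymes of serine synthesis, which turns a glycolytic intermediate into serine, from which glycine and one-carbon units for nucleotides are made.

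The 10 genes fell into 2 sets by level. Atf4 and the serine and glycine enzymes Phgdh, Psat1 and Shmt2 were abundant, and Psph, Ddit3 and Sesn2 were lower but well above background. Asns, Trib3 and Chac1, 3 targets often used to read ATF4 activity, were low. Asns and Chac1 lay close to the background of the libraries, and Trib3 stood at 2.83 times that background. No tested gene of the 10 passed the test between niches or between LPC types.

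The promoters of those 3 low genes are shown because they were the ones among the 10 genes that held the letters of the C/EBP-ATF response element, the composite site through which ATF4 and its partners are known to act. The search covered RefSeq promoter windows on GRCm38.p6, which run from 250 bases before to 50 bases after a start site. All 10 genes matched, with 11 windows because Psat1 has 2 start sites. The letters TGATGNAA were sought on both strands and are in capitals, written as they stand on the strand shown, which is that of the gene, 5′ to 3′.
Asns, chr6:7693180-7693329, minus strand: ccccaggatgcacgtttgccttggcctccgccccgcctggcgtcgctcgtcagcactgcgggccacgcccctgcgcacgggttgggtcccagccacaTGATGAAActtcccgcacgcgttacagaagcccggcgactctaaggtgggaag
Chac1, chr2:119350992-119351141, plus strand: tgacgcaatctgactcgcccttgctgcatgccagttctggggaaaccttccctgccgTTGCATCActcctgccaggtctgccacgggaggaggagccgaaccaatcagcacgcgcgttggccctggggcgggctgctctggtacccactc
Trib3, chr2:152344031-152344180, minus strand: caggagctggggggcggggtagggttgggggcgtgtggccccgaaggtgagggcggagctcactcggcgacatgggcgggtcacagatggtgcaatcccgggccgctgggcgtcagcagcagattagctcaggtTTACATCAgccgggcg
The match began at -23 from the start site in Asns, at -193 in Chac1 and at 15 in Trib3, the last 2 on the opposite strand. It was in 3 of 11 windows of these genes and in 3.97% of all windows (1304 of 32851). The E-box letters CACGTG were in 0 of the 11 windows and in 7.15% of all windows (2349). A match of letters is a description and not a bound site, and a window without it says only that the letters are not in those bases.

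Levels are given as CPM (counts-per-million values) on library sizes scaled by the trimmed mean of M-values (TMM). Depth was 19.2 to 29.2 M (mega) counts in total per library, and 41.8% of all counts lay in 3333 identifiers that no symbol matched. As a measure of background, the summed counts per kb of exon of 1464 olfactory and vomeronasal receptor genes, which most tissues do not express, were taken in each library. This density was 0.061 ± 0.0231 CPM per kb in BM LSK, 0.0892 ± 0.0138 in CNS LSK, 0.0441 ± 0.00666 in BM LK and 0.0639 ± 0.0225 in CNS LK (SD, n = 4). Markers of the labelled pro-B type were mixed in level and did not by themselves bear out that label. Ebf1 and Pax5 lay at 1.06 and 1.04 times this background. Blnk, Ebf1, Igll1, Pax5, Rag2 and Vpreb1 were under 3 times this background, Cd79b, Cd79a and Vpreb3 were at 3.41, 11 and 22.1 times, and Rag1, Il7r and Dntt stood at 275, 83 and 78.4 CPM. Of 8 T and NK markers, Cd3e, Cd3g and Nkg7 were under 3 times background, Cd3d, Cd8a and Cd4 were at 5.75, 25.6 and 33.2 times, and Lck and Bcl11b stood at 222 and 291 CPM. Kit, an antigen of both gates, stood at 138 CPM. All 5 microglial markers and 5 of 6 astrocyte markers were under 3 times background.

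Atf4, the transcription factor of the response, was among the abundant messages. In BM LSK it stood at 73.7, 61.8, 74.7 and 59.5 CPM, and in CNS LSK at 70.5, 59.5, 64.5 and 67.2 CPM. In BM LK it stood at 67.4, 61.8, 66 and 55.9 CPM, and in CNS LK at 72.4, 60.4, 64.3 and 59.5 CPM. All 4 groups overlapped, with means of 67.4 ± 7.89, 65.4 ± 4.65, 62.7 ± 5.14 and 64.2 ± 5.88 CPM in that order (SD, n = 4). Its CNS-minus-BM difference over both LPC types was -0.0057 on the log2 scale (SE 0.0635, 95% interval -0.14 to 0.13, adjusted p 0.995, edgeR quasi-likelihood test). Atf4 lay at the 97.2 percentile of protein-coding genes by level per length.

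Phgdh, which encodes phosphoglycerate dehydrogenase, the enzyme that commits a glycolytic intermediate to serine, was the highest of the 10 genes per length. Its levels in BM LSK were 112, 103, 102 and 108 CPM, and in CNS LSK 95.4, 97.6, 84.6 and 120 CPM. The BM LK libraries had 93.5, 108, 99.5 and 86.5 CPM, and the CNS LK libraries 106, 117, 95.1 and 92.1 CPM. CNS LSK held both the lowest and the highest library of the 16, and the groups overlapped.

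The counts of Phgdh are uncertain, since the mouse genome holds processed pseudogenes nearly identical to it. Of the GENCODE M21 transcripts, 17 processed pseudogenes on the sense strand aligned to it over at least 200 bases at 90% identity or more. Gm7901 is 98.7% identical over 1597 bases and held 25.6% to 29.9% as many counts as Phgdh (median 27.9%). All 17 copies together held 34.5% to 42.1% as many (median 39.6%). Reads from Phgdh and from such copies may not be told apart, and with the copies added to Phgdh its niche difference was 0.00165 on the log2 scale, against -0.0087 without them (95% interval -0.15 to 0.14).

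Psat1, phosphoserine aminotransferase, makes the second step of the pathway, and its counts were close in all groups. It stood at 48.4, 44.3, 40.6 and 42 CPM in BM LSK and at 43.1, 46.3, 43.7 and 51.8 CPM in CNS LSK. The LK libraries had 40.1, 41.5, 43.9 and 44.1 CPM in BM and at 36.1, 48.2, 38.2 and 49 CPM in CNS. The BM LK libraries lay inside the range of the CNS LK libraries. Its single processed pseudogene, Gm12611, held 0.286% as many counts.

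Psph, phosphoserine phosphatase, makes the last step and was the lowest of the 3 serine synthesis enzymes. It stood at 9.83, 8.15, 7.34 and 10.2 CPM in BM LSK and at 8.6, 8.67, 7.52 and 10.5 CPM in CNS LSK. The LK levels were 6.77, 10.4, 8.53 and 8.54 CPM in BM and at 8.75, 8.72, 8.64 and 9.46 CPM in CNS. The CNS LK values lay within the range of the BM LK values, which ran both lower and higher. Psph shares 452 bases with the opposite strand of Cct6a, a chaperonin subunit gene with a mean of 3640 counts against 210 for Psph, and the use of strand in counting is not given in the sources used here.

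Shmt2, the mitochondrial serine hydroxymethyltransferase, splits serine into glycine and a one-carbon unit. It stood at 107, 93.6, 96.9 and 112 CPM in BM LSK and at 89.3, 99.6, 87.8 and 124 CPM in CNS LSK. In LK cells it stood at 85.8, 115, 103 and 92.1 CPM in BM and at 83.6, 114, 96.6 and 93.9 CPM in CNS. As with Phgdh, the highest of the 16 libraries was CNS LSK 4, and each pair of groups overlapped.

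Ddit3, which encodes CHOP, a transcription factor of prolonged stress, was detected in every library with 64 to 158 counts. It stood at 4.2, 4.98, 5.65 and 3.04 CPM in BM LSK and at 4.08, 5.3, 4.07 and 2.9 CPM in CNS LSK. In LK cells it stood at 4.62, 5.65, 4.69 and 3.99 CPM in BM and at 4.7, 3.77, 4.64 and 2.84 CPM in CNS. The lowest library was the replicate numbered 4 in all 4 groups. The symbol Ddit3 has 2 identifiers, and the values are those of ENSMUSG00000025408. The other, ENSMUSG00000116429, spans 105 bases, all shared with the first (6.1% of its exons), and had 0 counts in all 16 libraries.

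Sesn2, a stress-induced inhibitor of mTORC1 signalling, was the lowest gene that could be tested. It stood at 3.3, 3.85, 2.85 and 2.61 CPM in BM LSK and at 2.73, 2.81, 3.18 and 3.44 CPM in CNS LSK. Sorted as LK, the cells had 4.16, 4.26, 3.35 and 3.19 CPM in BM and at 3.42, 4.44, 2.75 and 3.51 CPM in CNS. The LK means of 3.74 ± 0.546 and 3.53 ± 0.696 CPM were above the LSK means of 3.15 ± 0.547 and 3.04 ± 0.33 CPM (SD, n = 4), but the groups overlapped.

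**Figure D1:**
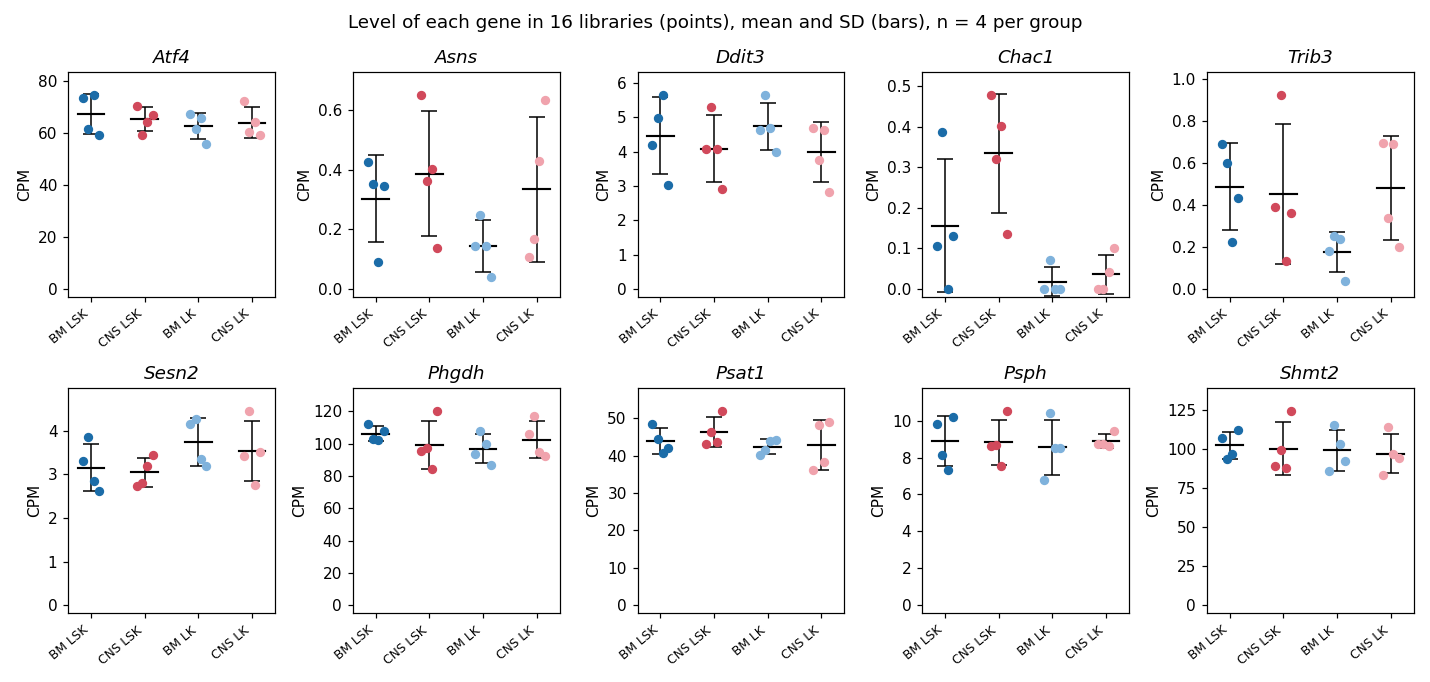
Level in CPM of each of the 10 genes (vertical axes, each with its own scale) in the 4 groups; points are libraries and bars the mean with SD, n = 4 per group. Atf4, Phgdh, Psat1 and Shmt2 sit between 36.1 and 124 CPM with overlapping groups, while Asns, Chac1 and Trib3 stay under 1 CPM, and Chac1 is near 0 in both LK groups.

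Levels of different genes can be set side by side only per length, so CPM was divided by the exon length in kb from GENCODE M21. The order of means over 16 libraries was Phgdh (40.7 CPM per kb), Shmt2 (32), Atf4 (27.5), Psat1 (10.3), Ddit3 (2.52), Psph (2.03), Sesn2 (0.968), Trib3 (0.188), Asns (0.107) and Chac1 (0.0831). The steps from Phgdh to Shmt2, Atf4 to Psat1, Psat1 to Ddit3, Psph to Sesn2 and Sesn2 to Trib3 held in 16 of 16 libraries. Neighbours that changed places were Shmt2 and Atf4 (in this order in 12 of 16), Ddit3 and Psph (13), Trib3 and Asns (13), and Asns and Chac1 (11). The serine synthesis enzymes were unequal: Phgdh per length was 3.21 to 5.04 times Psat1 (median 3.98) and 17 to 24.2 times Psph (median 19.7). Phgdh was 1.18 to 1.59 times Shmt2 (median 1.23). These ratios use the counts of Phgdh alone, and its 17 pseudogene copies held 34.5% to 42.1% as many. Their size therefore depends on how reads were assigned between Phgdh and the copies.

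Asns, asparagine synthetase, had 1 to 19 counts in a library, and 114 in all where the receptor background would give 67.8, a ratio of 1.68 (exact 95% Poisson interval of the summed count 94 to 137), and it exceeded background in 13 of 16 libraries. It stood at 0.425, 0.353, 0.0889 and 0.347 CPM in BM LSK and at 0.651, 0.361, 0.403 and 0.136 CPM in CNS LSK. In LK cells it stood at 0.143, 0.25, 0.144 and 0.0399 CPM in BM and at 0.107, 0.169, 0.43 and 0.635 CPM in CNS. By density 7.72% of the receptor genes were at least as high as Asns. Per length, Atf4 was 109 to 1630 times Asns (median 244), but the Asns counts in this ratio were few and near background. In BM LK 4, Asns had 1 count where background would give 2.35.

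Trib3, a pseudokinase that restrains ATF4 and CHOP in feedback, had 149 counts against 52.7 from background, a ratio of 2.83. The exact 95% Poisson interval of the summed count was 126 to 175. Trib3 exceeded background in 14 of 16 libraries, and by density 2.12% of the receptor genes were at least as high. It stood at 0.691, 0.6, 0.222 and 0.434 CPM in BM LSK and at 0.391, 0.923, 0.134 and 0.362 CPM in CNS LSK. The LK libraries had 0.179, 0.25, 0.239 and 0.0399 CPM in BM and at 0.694, 0.339, 0.688 and 0.201 CPM in CNS. Between CNS and BM libraries that share a number and a label stem, the CNS was higher in 4 of 4 LK stems and in 1 of 4 LSK stems.

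Chac1, an enzyme that breaks down glutathione, was the lowest, with 53 counts in all against 40.6 from background, and it exceeded background in 6 of 16 libraries. In BM LSK it had 2, 11, 0 and 3 counts, and in CNS LSK 11, 8, 9 and 3. In BM LK it had 0, 2, 0 and 0 counts, and in CNS LK 0, 0, 1 and 3. The summed count was 47 in LSK (exact 95% Poisson interval 34.5 to 62.5, for counting error only) against 22.9 from background, and 6 in LK (2.2 to 13.1) against 17.7. The LK interval lay wholly below the receptor background, so that background was not an exact floor for Chac1. By density 15% of the receptor genes were at least as high as Chac1. Every CNS LSK library (0.136 to 0.478 CPM) was above every CNS LK library (0 to 0.1 CPM). This was the only comparison within a niche or within an LPC type in which the groups of any of the 10 genes did not overlap. Of 42314 identifiers averaging 1 count or more, 4.94% had groups that did not overlap in this comparison, against 2.91% between LPC types in BM, 4.36% between niches in LSK and 2.79% between niches in LK.

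**Figure D2:**
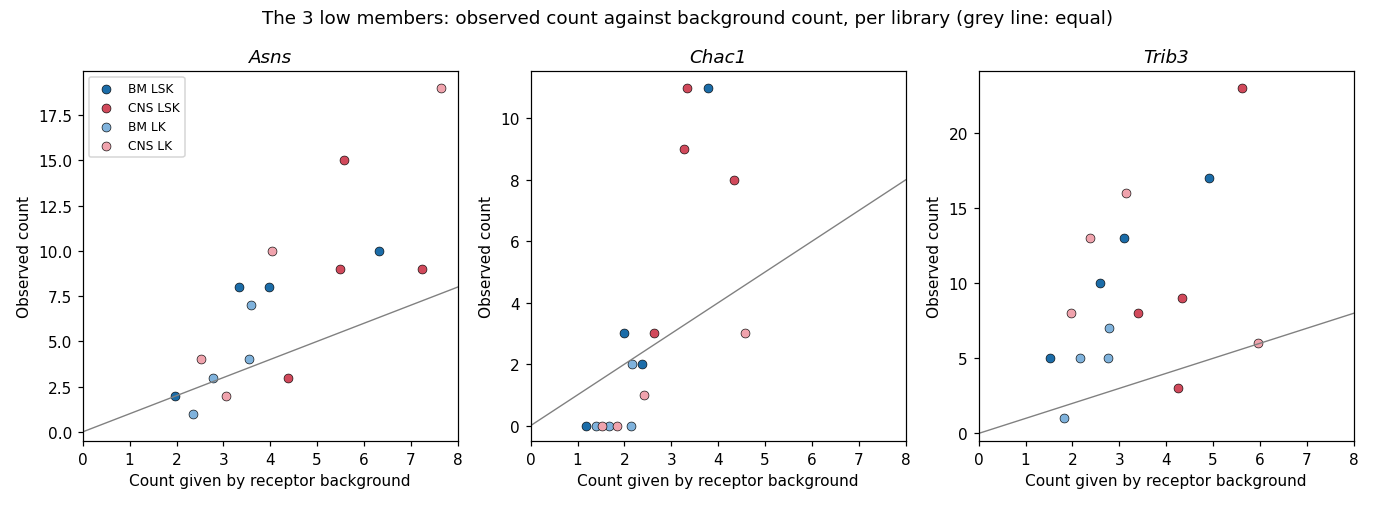
Observed count of Asns, Chac1 and Trib3 in each library (vertical axes) against the count that the receptor background would give for a gene of that length (horizontal axes); the grey line marks equal counts and colours the 4 groups. Points of Asns and Trib3 lie mostly above the line (13 and 14 of 16 libraries), those of Chac1 mostly not (6 of 16 above it), and the Chac1 points of LK lie at or below 3 counts.

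The 3 low genes fell below the mean of 10 counts set for the edgeR fit, so their CPM was compared by a two-sided exact permutation test, with Benjamini-Hochberg adjustment over 6 tests. Between LPC types, libraries of 1 stem were averaged and 4 LSK stems set against 4 LK stems, which allows 70 arrangements and no p below 0.0286. Chac1 averaged 0.245 CPM in LSK and 0.0269 CPM in LK (exact p 0.0286, adjusted 0.171). Without CNS LSK 3 the difference was 0.168 CPM in place of 0.218, with an exact p of 0.143. The background density and the astrocyte marker sum (6.31 to 8.38 CPM in CNS LSK and 3.22 to 5.52 CPM in CNS LK, 2.4 to 6.25 CPM in BM LSK and 2.67 to 4.76 CPM in BM LK) were also higher in CNS LSK than in CNS LK, and their part in the Chac1 values was not tested. With no filter on low counts, edgeR's quasi-likelihood test gave Chac1 a log2 difference of 2.79 with an adjusted p of 0.0517 over all identifiers. By the same test it was 2.73 in BM (p 0.016, adjusted 0.612) and 2.84 in CNS (p 0.00448, adjusted 0.556). That fit over both niches treats the BM and CNS libraries of 1 stem as independent, and its median log2 difference over all genes was 0.139. Asns averaged 0.346 CPM in LSK and 0.24 CPM in LK (exact p 0.286, adjusted 0.353), and Trib3 0.47 and 0.329 CPM (exact p 0.4, adjusted 0.4).

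Between niches, libraries were permuted within each LPC type (4900 arrangements) without regard to shared stems, and none of the 3 passed. Asns averaged 0.362 CPM in CNS and 0.224 CPM in BM (exact permutation p 0.149, adjusted 0.298). Chac1 averaged 0.185 and 0.0871 CPM (exact permutation p 0.114, adjusted 0.298), and Trib3 0.466 and 0.332 CPM (exact permutation p 0.294, adjusted 0.353). All 3 means were higher in the CNS, where the receptor background was higher too within each LPC type, and the part of that background in the differences was not tested.

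The study compared niches and LPC types, and 7 comparisons follow: CNS against BM over both LPC types and within each, LSK against LK over both niches and within each, and the interaction. Of the 10 genes, 7 had a mean of at least 10 counts and were tested with edgeR's quasi-likelihood test among 18878 identifiers. At an adjusted p of 0.05 none of the 7 was called in any comparison, where 0.238% of all genes were called between LPC types over both niches (45 genes) and 0% in each of the other 6. The counts over all genes depended on how the shared stems were treated: with a replicate block 126 genes were called for the niche, 26 in LSK and 12 in LK, and with counts summed per stem 0 between LPC types, but none of the 7 in either fit. At an unadjusted p under 0.05 the count was again 0 of 7 in every comparison. The shares over all genes were 9.15% for the niche over both LPC types, 5.74% in LSK and 3.99% in LK, then 12.1% for LPC type over both niches, 6.38% in BM, 6.58% in CNS and 1.49% for the interaction. DESeq2 also called 0 of the 7, at the adjusted and at the unadjusted threshold. In bulk RNA such as this, fewer cells of a kind and less RNA per cell cannot be told apart.

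The niche intervals come from the fit without a block, which treats the BM and CNS libraries of 1 stem as independent. The CNS-minus-BM difference over both LPC types was 0.048 on the log2 scale for Psat1 (95% interval -0.09 to 0.19), 0.026 for Psph (-0.18 to 0.23) and -0.027 for Shmt2 (-0.20 to 0.14). Ddit3 had the lowest value, -0.19 (SE 0.15, -0.51 to 0.12, edgeR adjusted p 0.768), and its CNS library was the lower one in 6 of 8 stems. Sesn2 stood at -0.07 (-0.34 to 0.20). The largest fold inside the interval was 1.10 for Atf4 and 1.42 for Ddit3, with the other 5 between them. The median of the 7 was -0.009 on the log2 scale and that of all genes tested 0. Within LSK the 7 differences ran from -0.13 to 0.077, with interval bounds from -0.57 to 0.33. Within LK they ran from -0.26 to 0.081, with bounds from -0.7 to 0.35, and the interval of Ddit3 there reached 1.63-fold.

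Between LPC types over both niches, the LSK-minus-LK difference of largest size was that of Sesn2, -0.23 on the log2 scale (SE 0.128, 95% interval -0.50 to 0.03, p 0.0844, edgeR adjusted p 0.479). This fit too treats the BM and CNS libraries of 1 stem as independent. With counts summed per stem the Sesn2 difference was -0.246 (edgeR adjusted p 0.641). In the fit without a block the other 6 lay between -0.019 (Ddit3, -0.33 to 0.30) and 0.077 (Psat1, -0.06 to 0.22). Atf4 differed by 0.066 (-0.07 to 0.20), Phgdh by 0.044 (-0.10 to 0.19), Shmt2 by 0.048 (-0.12 to 0.22) and Psph by 0.019 (-0.19 to 0.22). The median of the 7 was 0.044 and that of all genes -0.011. In the interaction, which sets the niche difference in LSK against that in LK, Phgdh had the value of largest size, -0.18 (95% interval -0.47 to 0.11, edgeR p 0.211, adjusted 1).

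**Figure D3:**
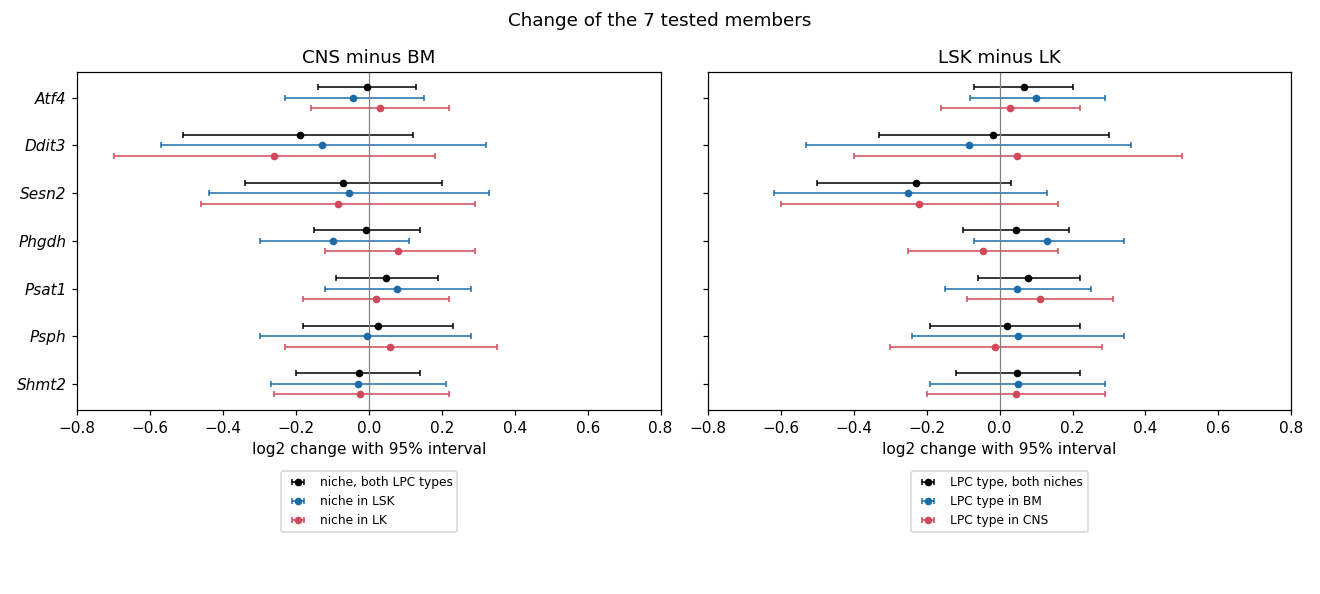
Log2 differences with 95% intervals (horizontal axes) of the 7 tested genes (vertical axis), CNS minus BM and LSK minus LK, in colours for the comparison over both groups and within each. Every interval includes 0; the widest are those of Ddit3 and Sesn2 and the narrowest those of Atf4, Phgdh and Psat1.

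The spread between libraries of a group depended on the level. The within-group SD on the log2 scale was 0.13 for Atf4, 0.14 for Psat1, 0.15 for Phgdh and 0.18 for Shmt2. Over the 2846 genes with a mean of at least 1000 counts its median was 0.11, and these 4 genes lay at the 66, 72, 75 and 85 percentiles. It was 0.20 for Psph, 0.23 for Sesn2 and 0.33 for Ddit3. The SD was 0.91 for Trib3, 0.95 for Asns and 1.23 for Chac1, where a few counts set each value.

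Whether the genes moved together was described over the 8 label stems, each a BM and a CNS library of 1 LPC type and number, for the 21 pairs of the 7 tested genes. Over stem means, 12 of 21 pairs had a positive Pearson correlation (median 0.0257, from -0.694 to 0.844), and 0 passed after adjustment over the 21 pairs. The highest was that of Psph and Shmt2 (r 0.844, exact permutation p 0.0103, adjusted 0.216; rho 0.857, exact p 0.0107, adjusted 0.225; r 0.812 without the 2 farthest stems). Phgdh and Shmt2 had r 0.786 (exact permutation p 0.0214, adjusted 0.224; rho 0.714, exact p 0.0576, adjusted 0.291), which fell to 0.143 without the 2 farthest stems and so rested on those.

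Over the CNS-minus-BM differences of the stems, 16 of 21 pairs were positive (median 0.32, from -0.606 to 0.86). Each adjustment covered only the 21 pairs of a single measure and statistic, and genes of a library share its depth and scaling. Atf4 and Phgdh had the highest value (r 0.86, exact permutation p 0.00412, adjusted 0.0865; rho 0.952, exact p 0.00114, adjusted 0.024; r 0.783 without the 2 farthest stems). Their stem differences had the same sign in LSK, where both were lower in the CNS in stems 1, 2 and 3 and higher in stem 4. In LK both were higher in stems 1 and 4 and lower in stem 3, while in stem 2 Atf4 stood at -0.03 and Phgdh at 0.11. Over stem means the same pair had r 0.0257 (exact permutation p 0.95, adjusted 0.957; rho 0.119, exact p 0.793, adjusted 0.833; -0.624 without the 2 farthest stems).

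Each of the 7 genes was also set against the 11633 other genes with a symbol and a mean of at least 50 counts, and the 2 genes of highest Pearson r over the 16 libraries were named. These values are a description, since the points share depth and scaling, and each is the top of a long list. For Shmt2 the closest was Shmt1, its cytosolic counterpart (r 0.948), followed by Nolc1 (0.882), a nucleolar protein gene. Shmt1 averaged 45.6 ± 2.84 CPM in BM LSK, 45.4 ± 6.32 in CNS LSK, 45.3 ± 4.37 in BM LK and 44.7 ± 4.84 in CNS LK (SD, n = 4), and its highest library, CNS LSK 4 at 54.5 CPM, was also the highest for Shmt2. For Phgdh the closest was its pseudogene copy Gm7901 (0.9), followed by Uqcrc1, a subunit of respiratory complex III (0.832). Atf4 went with Rapgef1 (0.901) and Gm42427 (0.87), and Psat1 with the peroxiredoxin gene Prdx1 (0.851) and Nudcd1 (0.825). Psph went with Trim35 (0.831) and Srrd (0.815), Ddit3 with Efr3b (0.802) and the choline kinase gene Chka (0.792), and Sesn2 with the haem exporter gene Flvcr1 (0.835) and Gm10933 (0.795).

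**Figure D4:**
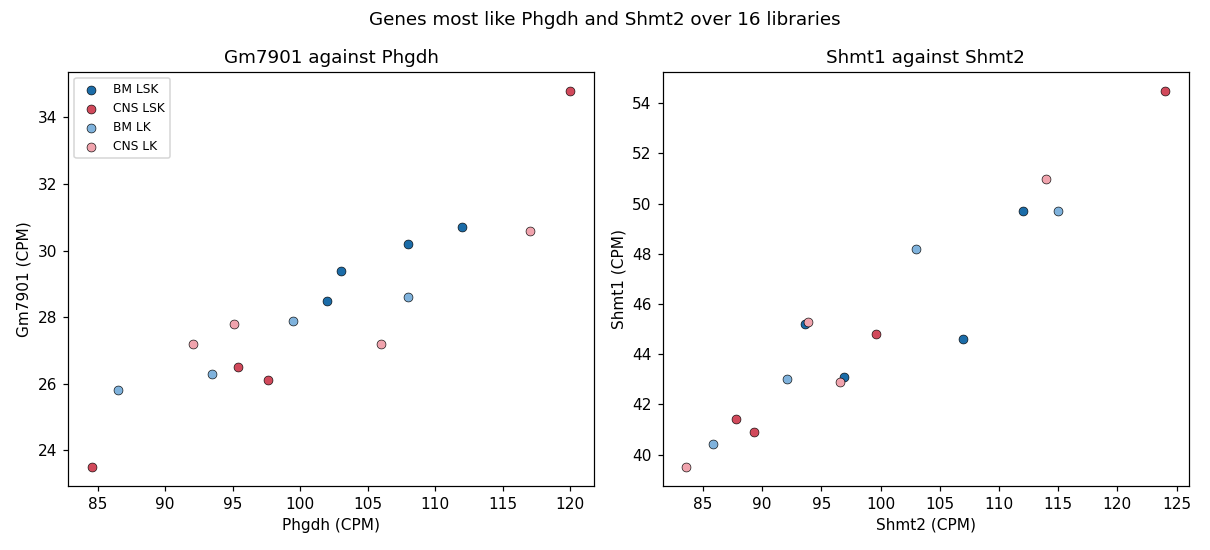
Level in CPM of the pseudogene copy Gm7901 against Phgdh and of Shmt1 against Shmt2, with 1 point per library and colours for the 4 groups. In both panels the CNS LSK 4 library is at the upper right, and the groups are mixed along the line of points (r 0.9 and 0.948).

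The other genes of the pathway were read from 8 lists holding 120 genes besides the 10. Of the 120, 110 could be tested and 14 lay under 3 times background. The input of the response was expressed throughout: all 19 of 19 genes were above that level, among them the 4 eIF2 kinases, with the haem-regulated Eif2ak1 at 28.3, the RNA-activated Eif2ak2 at 19.5, the endoplasmic reticulum kinase Eif2ak3 at 17.4 and the amino acid sensor Eif2ak4 at 25.5 CPM. The 20 cytosolic aminoacyl-tRNA synthetase genes, which charge tRNAs and include many ATF4 targets, ran per length from 4.11 (Cars1) to 53.1 CPM per kb (Vars1).

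Other reporters of ATF4 activity were mixed in level. Among 16 other linked factors and feedback genes, 6 lay under 3 times background: Atf3, Fgf21, Gdf15, Nupr1, Stc2 and Vldlr, with 0.0716 CPM for Fgf21, a stress hormone gene, and 0.142 CPM for Gdf15, another. Others of that list were well expressed, such as Cebpg, which encodes a partner of ATF4, at 21.2 CPM, the mTORC1 inhibitor gene Ddit4 at 16.2 CPM (3.67 to 32) and Eif4ebp1, a translation repressor gene, at 7.62 CPM. Of 10 amino acid transporter genes, Slc1a4 and Slc7a3 were under 3 times background, while the cystine carrier gene Slc7a11 stood at 28.1 CPM and the leucine carrier gene Slc7a5 at 61.1 CPM. Of 22 one-carbon and glycine genes 4 were under it (Aldh1l1, Aldh1l2, Gldc and Sds), while the mitochondrial folate enzyme genes Mthfd2 and Mthfd1l stood at 23 and 62.7 CPM and the serine carrier gene Sfxn1 at 38.3 CPM. Of 13 other amino acid synthesis genes 2 were under it (Cbs and Gls2), and Pycr1, a proline synthesis gene, stood at 1.21 CPM. All 14 genes of the IRE1 and ATF6 arms were above it, with the chaperone gene Hspa5 at 193 CPM.

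**Figure D5:**
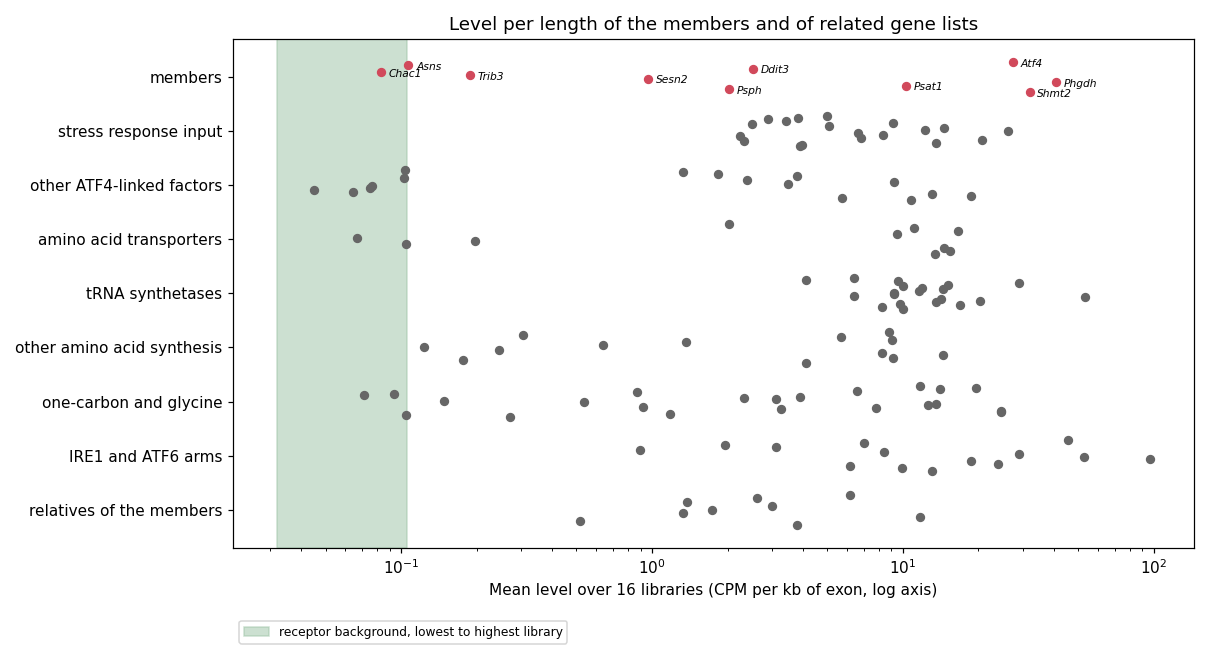
Mean level over 16 libraries in CPM per kb of exon (horizontal log axis) of the 10 genes and of the related gene lists (rows), with the range of the receptor background over libraries as a shaded band. Asns and Chac1 lie in or beside the band of 0.032 to 0.106, Trib3 above it at 0.188, and Atf4, Phgdh, Psat1 and Shmt2 at 10.3 to 40.7.

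None of the 110 tested genes of these lists passed an adjusted p of 0.05 in any of the 7 comparisons (edgeR's quasi-likelihood test with Benjamini-Hochberg adjustment). At an unadjusted p under 0.05 there were 8 for the niche over both LPC types (7.27%, against 9.15% of all genes), 9 in LSK (8.18% against 5.74%) and 3 in LK (2.73% against 3.99%). There were 12 for LPC type over both niches (10.9% against 12.1%), 2 in BM (1.82% against 6.38%), 7 in CNS (6.36% against 6.58%) and 2 for the interaction (1.82% against 1.49%). The list medians lay between -0.061 and 0.061 on the log2 scale for the niche over both LPC types and between -0.076 and 0.10 for LPC type.

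Of the genes of smallest p in these lists, Vldlr and Gls2 were under 3 times background and the others were well above it. Vldlr, a lipoprotein receptor gene, averaged 0.399 ± 0.213 CPM in BM LSK, 0.823 ± 0.204 in CNS LSK, 0.13 ± 0.0483 in BM LK and 0.454 ± 0.3 in CNS LK (SD, n = 4). Its niche difference was 1.43 on the log2 scale (edgeR adjusted p 0.303) and its LPC difference 1.21 (adjusted p 0.188). Its level, however, was 0.695 times the receptor background, whose group means stood in the same order. The part of that background was examined only in an alternative fit with a background covariate, whose values for Vldlr are not given here. Gls2, a glutaminase gene, had a niche difference of 0.88 (edgeR adjusted p 0.314). In LSK the niche difference was -0.20 for the histidyl-tRNA synthetase gene Hars1 and -0.16 for the eIF2B subunit gene Eif2b5 (edgeR adjusted p 0.855 for both). Between LPC types, Trib2, a relative of Trib3, stood at -0.56 (edgeR adjusted p 0.353), Impact at -0.24 in BM (adjusted p 0.776) and Eif2b1 at -0.26 in CNS (adjusted p 0.696). In the interaction Eif2b1 stood at -0.39 and Hars1 at -0.28 (edgeR adjusted p 1 for both).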

How the data were processed

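RNA was counted in 16 bulk libraries. Per the labels' protocols the kit was stranded, for total RNA of small input. The deposited table holds whole-number counts for 55414 Ensembl identifiers. Although the table is described as normalised, its columns summed to different totals (size factors 0.804 to 1.281), and they were used as raw counts. The submitters' processing notes name GRCm39 and DESeq2, while the aligner, counter, annotation, strand setting and any use of molecular identifiers are not given in the sources used here. Library columns were matched by label, and 0 columns were left unused. Replicates differed beyond sampling noise (chi-square 11.0 to 42.4 for each degree of freedom).

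Symbols, exon lengths and copies came from GENCODE M21 (GRCm38) by identifier (52081 matched), and promoters from RefSeq. Identifiers whose mean reached 10 counts (18878) went into edgeR 4.0.16 under R 4.3.3, with TMM scaling, a mean for each of the 4 groups and no block. Tests were quasi-likelihood tests, two-sided, with adjustment by Benjamini-Hochberg. The script was tested on simulated data. The values of some marker genes are not reported here. Alternatives were a replicate block, no filter, median-of-ratios scaling, DESeq2 1.42.0, identifiers with a symbol only, a background covariate, leaving out each library, and counts summed per stem, and, chosen after seeing the data, pseudogene copies summed with their gene. The genes and lists were chosen with earlier results of these data known. Named were the 10 genes, list genes with an adjusted p of at most 0.05 in a comparison or else the 2 of smallest p in it, and the 2 genes most like each gene with a mean of at least 50 counts.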

Additional observations from a re-analysis of the deposited data

Results flagged for a closer look

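In groups of 4 libraries, a library stood apart where its gap to the nearest other, divided by the range of the group, exceeded Dixon's 95% critical value. Of the 40 gene and group combinations examined, 2 met this, and chance gives about 1 in 20, or 2. Chac1 in BM LK 2 was at 0.0716 CPM, where the other BM LK libraries were at 0. That value rests on 2 counts. Psph in CNS LK 4 was at 9.46 CPM, where the other CNS LK libraries lay between 8.64 and 8.75 CPM, and the value is inside the range of the other groups.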

How the results depend on the processing

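None of the 7 tested genes passed an adjusted p of 0.05 under any alternative that was run, with each library left out in turn included. Asns, Chac1 and Trib3 entered the edgeR fit only with no filter, where none passed (lowest adjusted p 0.0517, Chac1, LSK against LK). Their exact permutation tests were repeated over both comparisons with other scalings and with each library left out, without adjustment. The lowest adjusted p of the 7 with DESeq2 was 0.51.

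The fit with the replicate block called 0 of the 7 tested genes in each comparison (lowest adjusted p 0.441). Over all genes the block called 126 for the niche, 26 in LSK and 12 in LK, where the fit without it called 0 each. The labels do not say what a shared number or stem is. Deviations of the BM and CNS libraries of 1 stem correlated over 0.1 in 5 of 8 stems with the minimum mean at 10 counts and in 8 of 8 with it at 50. Each library was also set against only the 4 of its LPC type in the other niche. There 9 and 16 of 16 libraries correlated best with their own stem. LSK and LK libraries of 1 number, which the block joins for LPC type, correlated over 0.1 in 4 of 8 pairs (-0.167 to 0.2) and in 6 of 8 (0.0604 to 0.358).

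Other counts over all genes that differed by over 1.5 times were, for LPC type over both niches (45), 290 with no filter, 222 with DESeq2, 9 with the background covariate, 0 with stems summed and 15 to 138 with 1 library left out. Where edgeR called 0, DESeq2 called 40 for the niche, 39 for LPC type in BM and 6 in CNS, and the fit with no filter 85 for the niche, 10 in LSK, 14 in LK, 48 for LPC type in BM and 38 in CNS. Leaving out 1 library gave up to 2 for LPC type in BM and up to 3 in CNS.

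Several log2 differences near 0 changed sign. For the niche these were Atf4 (0.0217), Phgdh (0.0309), Psph (-0.0239) and Shmt2 (0.019) with the background covariate, Psat1 (-0.00785) and Psph (-0.029) with no filter, and Phgdh (0.00165) with its copies. For LPC type these were Ddit3 (0.00268 with symbols only, 0.00905 with the covariate), Psph (-0.0245 with the covariate, -0.0382 with no filter), and Phgdh (-0.0135) and Shmt2 (-0.0092) with no filter. With no filter the median of all genes was 0.153 for the niche and 0.139 for LPC type. With 1 library left out, niche values ran from -0.0374 to 0.0202 for Atf4, -0.052 to 0.027 for Phgdh, -0.0241 to 0.0816 for Psph and -0.0782 to 0.0134 for Shmt2, and LPC values from -0.0883 to 0.0669 for Ddit3 and -0.0309 to 0.0832 for Psph. The cause was not tested.

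An unadjusted p under 0.05 appeared for Sesn2 between LPC types without BM LSK 2 (-0.285, edgeR p 0.0438) or CNS LK 3 (-0.283, edgeR p 0.0385) and for Phgdh in the interaction without CNS LSK 4 (-0.265, edgeR p 0.0404). Chac1 between niches had an exact permutation p of 0.0449 without BM LSK 2. Depth limits Asns, Chac1 and Trib3, with means of 7.12, 3.31 and 9.31 counts.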

Other observations

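With no filter on low counts, Trib3 in LK cells had a CNS-minus-BM difference of 1.34 on the log2 scale (edgeR p 0.0291, adjusted 0.776), and in LSK cells -0.144 (edgeR p 0.794, adjusted 0.974). The interaction of the 2 was -1.49 (edgeR p 0.0725, adjusted 1). In the same fit its LSK-minus-LK difference was 1.38 in BM (edgeR p 0.0246, adjusted 0.651) and -0.107 in CNS (edgeR p 0.847, adjusted 0.98), and the niche comparison in LK shares the BM LK libraries with the LPC comparison in BM. The summed Trib3 counts were 18 in BM LK and 43 in CNS LK, where the receptor background would give 9.5 and 13.4, and 45 in BM LSK and 43 in CNS LSK, where it would give 12.1 and 17.6.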
